A study of Mus musculus with 4 samples.

Results

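The lymphocytes described here are 64 cells of the library made from the positive fraction of mouse liver cells in the recovery stage. They were found by the transcripts of 6 genes: Cd79a and Cd79b, the signalling chains of the B cell receptor, Cd3e, Cd3g and Trbc2 of the T cell receptor complex, and Nkg7, a protein of cytotoxic granule membranes. A member had at least 3 unique molecular identifiers (UMIs, each standing for 1 captured transcript molecule) of these genes together and at least 5 per 10000 of its UMIs, with fewer than 10 per 10000 of the mesothelial genes Msln, Upk3b, Nkain4 and Lrrn4 and fewer than 20 per 10000 of the myeloid genes Lyz2, C1qa, C1qb and S100a8. A barcode was kept when it had 1000 or more UMIs from 300 or more genes, of which mitochondrial genes gave 20% or less. Of 2126 such barcodes in this library 64 were members, or 3.01% (exact binomial 95% interval 2.33 to 3.83%). The kept cells of the 3 libraries analysed numbered 10215. Cells with more UMIs of Cd79a and Cd79b than of the other 4 genes are called B-led (22 cells), and the rest T/NK-led (42 cells, for T and natural killer cells). No cell had equal sums.

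Mice carried Col1a2-CreERT2, a tamoxifen-inducible recombinase under the promoter of a collagen gene of fibroblasts and hepatic stellate cells, with a tdTomato reporter. The reporter allele reads R26RtdTomato in the design text and on the positive injury sample, but R27RtdTomato, R28RtdTomato and R29RtdTomato on the positive recovery, negative injury and negative recovery samples. Steatohepatitis, a fatty and inflamed liver, was induced for 8 weeks with a diet lacking methionine and choline, with 45% fat and 0.1% methionine in the drinking water (the injury stage). Recovery mice are labelled as such. The labels used here do not say how long they recovered, how many animals of what age each library holds or how the fractions were sorted. Non-parenchymal cells, those other than hepatocytes, were purified on a Nycodenz gradient after Pronase and Collagenase digestion, and libraries followed the single cell 3' v2 protocol of 10x Genomics. There was 1 library for each of the 4 combinations of fraction and stage. Nothing below has a replicate check or a test between conditions, and intervals cover counting error only. The reporter transcript was not among the 31053 features, so no cell could be checked for it.

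B cells recognise antigen with a membrane immunoglobulin, made of heavy chains and of kappa or lambda light chains, and show peptides of the antigen to T cells on MHC class II molecules. Plasma cells are their secreting descendants. T cells carry an alpha-beta or gamma-delta receptor that signals through the CD3 chains, while NK cells and group 1 innate lymphoid cells (ILC1) lack CD3 and use activating and inhibitory receptors encoded mostly in the Klr cluster. The liver sinusoids are known for many NK cells, ILC1 and tissue-resident memory T cells, which attract other leukocytes with chemokines such as Ccl5, Ccl3, Ccl4 and Xcl1.

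Several of the transcripts that describe these cells come from near-identical genes, so their coding sequences are shown first. Each is a 90-base stretch of the first coding exon, 5′ to 3′ on the gene's strand, from GRCm38 with the GENCODE M21 annotation, with capitals at the bases that differ from the partner gene. Trbc1 and Trbc2, the alternative constant regions of the T cell receptor beta chain, differ at 1 base of this stretch:
Trbc1: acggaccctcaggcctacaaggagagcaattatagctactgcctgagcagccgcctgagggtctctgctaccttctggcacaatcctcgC
Trbc2: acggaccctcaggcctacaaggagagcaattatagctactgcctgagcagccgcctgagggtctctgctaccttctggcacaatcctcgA
The stretches lie at chr6:41538388-41538477 and chr6:41546900-41546989, both on the plus strand. The constant regions of the lambda light chain are shown with capitals in Iglc2 and Iglc3 for their 7 differences from each other, and in Iglc1 for its 23 differences from Iglc2:
Iglc2: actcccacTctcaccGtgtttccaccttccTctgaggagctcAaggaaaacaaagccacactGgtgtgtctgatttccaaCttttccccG
Iglc3: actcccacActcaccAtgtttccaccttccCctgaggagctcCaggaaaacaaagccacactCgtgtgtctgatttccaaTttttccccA
Iglc1: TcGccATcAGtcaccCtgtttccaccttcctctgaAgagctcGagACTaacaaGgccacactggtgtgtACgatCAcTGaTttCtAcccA
They lie on the minus strand, at chr16:19198749-19198838, chr16:19065578-19065667 and chr16:19061968-19062057. Over the whole coding sequence Trbc1 and Trbc2 were identical at 495 of 518 aligned bases (95.6%) and Iglc2 and Iglc3 at 303 of 315 (96.2%), against 73.4% for Iglc1 and Iglc2. Past the stop codon, where a 3' method takes most of its reads, Trbc1 and Trbc2 were identical at 48.9% of aligned bases and Iglc2 and Iglc3 at 89.3%. Counts split between Iglc2 and Iglc3 are therefore uncertain, and those of Trbc1 and Trbc2 less so.

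The members held 1815 to 55936 UMIs in B-led cells (median 4310, sum 163353) and 3033 to 27600 in T/NK-led cells (median 5826.5, sum 297650), below the median of 12972 over all kept cells of the library. The leukocyte surface protein gene Cd52 (chr4:134082448-134095082) was detected in all 64 cells. Cells just inside the level required had 5.01, 5.80 and 9.52 per 10000 of the 6 genes, and the nearest cell outside had 4.13 per 10000 (9 UMIs). Another 2 cells had 13.2 and 7.07 per 10000 but only 2 and 1 UMIs of those genes. Of 70 cells that met the requirement on the 6 genes, 5 were set aside for mesothelial genes and 1 for myeloid genes, the latter with 19 UMIs of Cd79a and Cd79b beside 351 of the myeloid genes.

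The members were uneven, and 5 of the 64 stand apart. In 2 B-led cells, called plasma-like here, Jchain (the chain that joins secreted immunoglobulins) had at least 100 UMIs. They held 77125 UMIs, 47.2% of those in the B-led class. Another 3 T/NK-led cells, called mixed, had at least 20 UMIs of the sinusoidal endothelial genes Clec4g, Ptprb, Kdr and Stab2 or at least 10 of Cd79a and Cd79b. The remaining members are 20 B cells (86228 UMIs), 28 cells with at least 2 UMIs of Cd3d, Cd3e and Cd3g (CD3 cells, 190831 UMIs) and 11 with fewer, which had 0 in every case (CD3-poor cells, 59462 UMIs). These subgroups were drawn after the values were seen, and the genes that draw them are a description. The Scrublet method called 96 of 2126 kept cells doublets (4.52%), among them 1 plasma-like and 1 mixed cell and no B, CD3 or CD3-poor cell.

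**Figure D1:**
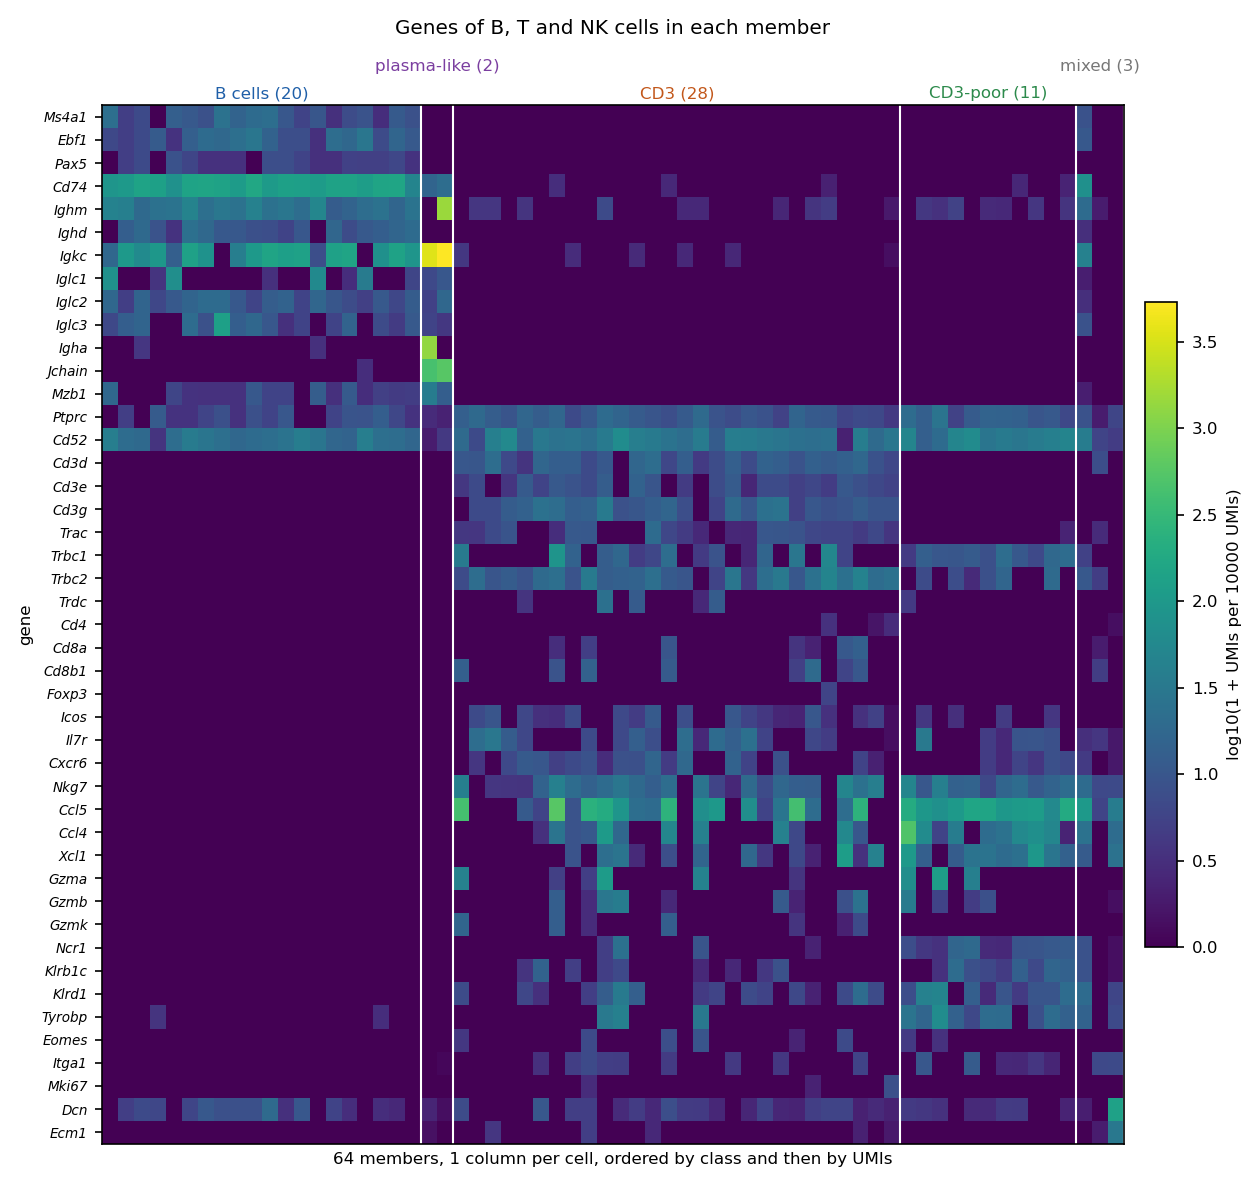
Level of marker genes in each of the 64 members, ordered by subgroup. Each column is 1 cell, each line of the map 1 gene, and the shade gives log10 of UMIs per 10000 UMIs with 1 added. Immunoglobulin genes and Cd74 fill the B cell block, Jchain the 2 plasma-like cells, the Cd3 genes the CD3 block, and Ccl5, Nkg7 and NK receptor genes the CD3-poor block.

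The 20 B cells carried the receptor, IgM and IgD together, and B cell surface markers. Cd79a (chr7:24897381-24902197) was at 9.99 to 41.1 per 10000 UMIs in the 20 cells (median 23.3) and Cd79b (chr11:106311341-106314762) at 5.90 to 31.5 (median 16.3), values that the choice of cells required. Ighm, the constant region of IgM (chr12:113418558-113422730), was at 11.4 to 50.2 per 10000 (median 24.2) and was present in every B cell. Ighd, of IgD (chr12:113406604-113416324), was at 0 to 22.5 (median 9.67) and present in 18. Among all 22 B-led cells, 1 had 2 or more UMIs of Igha (IgA) and 1, the same cell, 2 or more of the Ighg genes (IgG). Ms4a1, the surface protein CD20, was at 0 to 24.2 per 10000 (median 8.64; summed level 963 CPM, that is UMIs of the gene per 1000000 UMIs of the subgroup, with a Poisson 95% interval of 767 to 1190), and Ebf1, a transcription factor of B cell identity, at 2.28 to 28.5 (median 11.6; 1322 CPM). Pax5, another such factor, was detected in 17 of 20 cells at 371 CPM, and Mef2c was at 1252 CPM. The IgM Fc receptor Fcmr was at 1032 CPM and the low-affinity IgE receptor Fcer2a at 348 CPM. Cd5 and Spn, surface proteins of B1 cells, were at 0 in these 20 cells, where the 3 counts that a 0 allows come to 34.8 CPM. The list of B1 cell genes holds 8 genes, of which 4 were at 0 in these cells. The whole list gave 12 UMIs (139 CPM), at 0 to 3 UMIs a cell.

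Each B-led cell was called kappa-led or lambda-led by the kind of light chain with more UMIs. Igkc, the kappa constant region (chr6:70726435-70726966), exceeded the summed lambda genes Iglc1, Iglc2 and Iglc3 in 17 of 22 B-led cells, and in 15 of the 20 B cells. In those 15 the Igkc count was 16 to 80 UMIs (median 54.0) and the lambda sum 3 to 21 (median 9.0). In the 5 lambda-led cells Igkc was at 0 to 5 UMIs (median 3.0) and the lambda sum at 18 to 62 (median 31.0), so the Igkc counts of both kinds, which were set by these genes, did not overlap. The lambda gene that led differed between cells. Iglc1 led in 4, with 14, 27, 25 and 17 UMIs beside 3, 5, 3 and 0 of Igkc, and Iglc3 led in the other, with 54 UMIs beside 0 of Igkc.

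The lambda genes were not equal in the kappa-led cells. Iglc2 was detected in all 15, at 1 to 9 UMIs (median 4.0), and Iglc3 in 14, at 0 to 8 (median 3.0), while Iglc1 was detected in 4, at 0 to 4 UMIs. Iglc2 was at about the same count in the 5 lambda-led cells, at 2 to 8 UMIs (median 4.0). None of the 3 lambda genes gave a UMI in the CD3 and CD3-poor cells, and the 2 Iglc2 UMIs of the T/NK-led class lay in the mixed cell with other B cell transcripts. A low Iglc2 count was thus present in B cells of both kinds and not detected in the 39 CD3 and CD3-poor cells. Given the identity of Iglc2 and Iglc3 past the stop codon, the split between these 2 genes was not resolved.

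**Figure D2:**
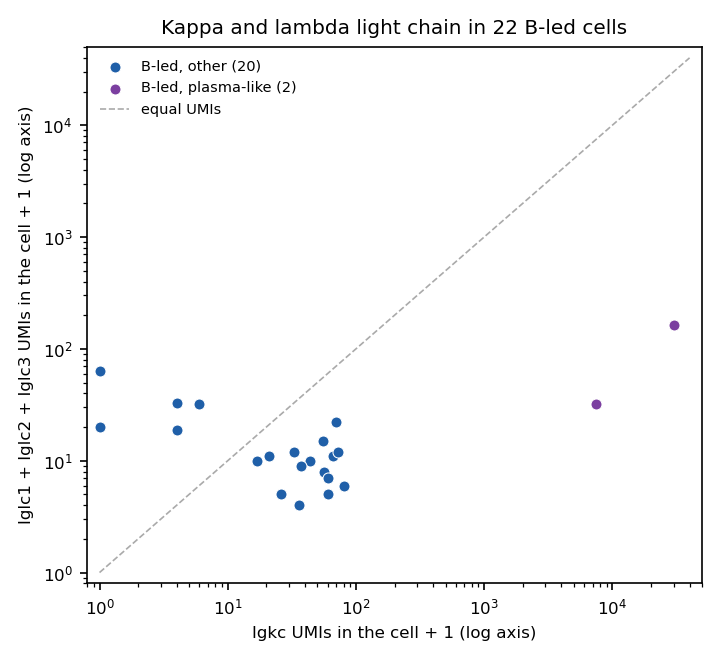
UMIs of Igkc against the sum of Iglc1, Iglc2 and Iglc3 in each of the 22 B-led cells, both on log axes with 1 added. The 5 lambda-led cells have 0 to 5 UMIs of Igkc, the 15 kappa-led B cells 16 to 80, and the 2 plasma-like cells lie far to the right.

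The 2 plasma-like cells differed from each other in the class of their heavy chain. The first held 21189 UMIs, of which immunoglobulin genes took 52.9%, with 7396 of Igkc, 2818 of Igha (chr12:113254830-113260236), 924 of Jchain (chr5:88519809-88527891), 34 of Ighg2b and 0 of Ighm. The second held 55936 UMIs, of which 74.6% were immunoglobulin, with 30066 of Igkc, 8262 of Ighm, 3204 of Jchain and 0 of Igha. The heavy chain was of IgA in one cell and of IgM in the other. Immunoglobulin took 0.713 to 2.37% of UMIs in the 20 B cells (median 1.63%). Both had UMIs of Mzb1, a chaperone of immunoglobulin assembly (77 and 68). The first also had the protein folding genes Hsp90b1 (192 UMIs, 9061 CPM against 302 CPM in the B cells), Hspa5 (149), Manf (76) and Pdia4 (72). The second had Txndc5 (96 UMIs) and Xbp1, the secretory transcription factor (70). Ms4a1 and Ebf1 were at 0 in both. A light chain variable segment led in each, Igkv3-4 with 17 UMIs in the first and Igkv12-89 with 28 in the second, and the heavy chain segments Ighv3-2 (9 UMIs) and Ighv1-26 (6) were in 1 cell each. The doublet caller marked 1 of these 2 cells.

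MHC class II genes set the B cells apart within the members. Cd74, the invariant chain that guides class II molecules to the endosome, was at 47.7 to 173 per 10000 in the 20 B cells (median 130) and at 12328 CPM in sum (11598 to 13092). The class II chains H2-Aa, H2-Eb1 and H2-Ab1 were at 3966, 3502 and 3236 CPM. H2-Aa was at 7.53 to 60.7 per 10000 in single B cells and at 0 in every CD3 cell. H2-Ob and H2-DMb2, which act in the loading of peptides on class II molecules, were at 394 and 545 CPM. Ciita, the master activator of class II genes, was at 278 CPM. Other cells of the library had class II too. Cd74 was at 7162 CPM in the 60 myeloid-gated cells and at 732 CPM in the 1397 mesothelial-gated cells.

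Each gene with at least 10 UMIs over both classes was compared between the B-led and T/NK-led cells, as the log2 ratio of CPM with 50 added, and is called higher or lower past 2-fold. Of 5481 genes 109 (1.99%) were higher in the B-led class and 653 (11.9%) lower, with a median over all genes of −0.40. Without the plasma-like and mixed cells, 208 of 4577 genes (4.54%) were higher and 445 (9.72%) lower, with a median of −0.18. The share of immunoglobulin UMIs in the plasma-like cells lowers every other gene of the B-led class on the CPM scale, so counts of lists are given both ways. The classes were defined by 6 of these genes, and none of the counts below is a test.

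All 10 class II presentation genes were higher in the B-led class (median log2 ratio 2.32), and all 10 without the plasma-like and mixed cells (3.31). Of the B cell receptor and signalling list, which holds Cd79a and Cd79b, 18 of 21 genes passed the minimum, of which 14 were higher and none lower (median 2.27), and without those cells 17 of 17 were higher (3.81). Of the list of B cell surface proteins and transcription factors, 15 of the 17 that passed were higher (median 1.93), and 15 of 17 without those cells (2.65). Of the list of plasma and class-switched genes 6 of the 9 that passed were higher, but without the plasma-like and mixed cells only 2 passed and 1 was higher. The largest log2 ratios in the B-led class were those of Igkc (10.16), Ighm (8.01), Cd74 (4.64), H2-Aa (4.52), Mzb1 (4.44), Iglc2 (4.43), H2-Eb1 (4.30), Iglc1 (4.22) and H2-Ab1 (4.04). After them came Cd79a (3.95), Ly6d (3.90), Iglc3 (3.64), Cd79b (3.64), Fcmr (3.48) and Ighd (3.46). The plasma-like cells held most of the Igkc, Ighm and Mzb1 UMIs. Without the plasma-like and mixed cells the ratio was 7.47 for Cd74, 6.85 for Igkc, 6.22 for H2-Aa, 4.78 for Ebf1, 4.12 for Ighm and 3.23 for Mzb1.

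On the T/NK side the chemokines led. Ccl5 (chr11:83525778-83530518), which attracts T cells, monocytes and NK cells, was at 8466 CPM in the T/NK-led class and at 0 in the 22 B-led cells, at least 461-fold lower in the latter when 3 counts over the class stand for the 0. Against the same floor Ccl4 was at least 117-fold lower in B-led cells, Xcl1 (chr1:164931644-164935527), which attracts cross-presenting dendritic cells, at least 90.7-fold, Trbc1 at least 46.5-fold, Cd7 at least 39.1-fold, Ccl3 at least 38.6-fold and Gzma and Klrd1 at least 36.0-fold each. Without the plasma-like and mixed cells these bounds were smaller. They were 266-fold for Ccl5, 64.7-fold for Ccl4, 48.0-fold for Xcl1, 28.7-fold for Trbc1 and 20.4-fold for Cd7. For Ccl3, Gzma and Klrd1 they were 23.0-fold, 22.6-fold and 18.9-fold. Nkg7 (chr7:43437073-43438249), Trbc2 and Cd3g, which chose the class, were at 0 in B-led cells as well. The inhibitor of helix-loop-helix factors Id2 was at 1052 against 24.5 CPM (log2 ratio −3.89), the signalling adaptor Fcer1g at 773 against 6.12 CPM (−3.87), Ms4a4b at 1035 against 18.4 CPM (−3.99) and AW112010 at 1757 against 30.6 CPM (−4.49).

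Whole lists were counted in the same way. The T cell receptor list holds Cd3e, Cd3g and Trbc2 and the cytotoxic list Nkg7, which chose the class. Their counts were thus set in part by the choice of cells. The NK and ILC1 list had 8 UMIs in the B-led class, so no gene of it could reach 10 UMIs there alone. Genes of this list passed only with UMIs of the T/NK-led class. Of 20 T cell receptor and signalling genes that passed, 18 were lower in the B-led class and none higher (median −2.53). Without the plasma-like and mixed cells 18 of 20 were lower (−2.45). Of the NK and ILC1 receptor list 17 of 18 were lower (median −3.01, and 17 of 18 at −3.11 without those cells), of cytotoxic granule and death ligand genes 12 of 13 (10 of 12 without), and of cytokines and chemokines 7 of 11 (8 of 11 without). Of 17 chemokine receptor and homing genes 1 was higher and 7 lower (median −0.79), and 5 were higher and 8 lower without the plasma-like and mixed cells (−0.53). Ccr7, which leads naive lymphocytes to lymph nodes, was among those of the B cells, at 406 CPM in 14 of 20 cells. The pan-leukocyte list had 5 lower and none higher of 14 (median −0.66), and 3 lower and 1 higher without those cells (−0.11). Cd52 was at 2238 CPM in B cells, 2699 CPM in CD3 cells and 3717 CPM in CD3-poor cells. The proliferation list had 6 of 10 genes lower in the B-led class, and 1 CD3 cell held most of those UMIs, as described with the CD3 cells.

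**Figure D3:**
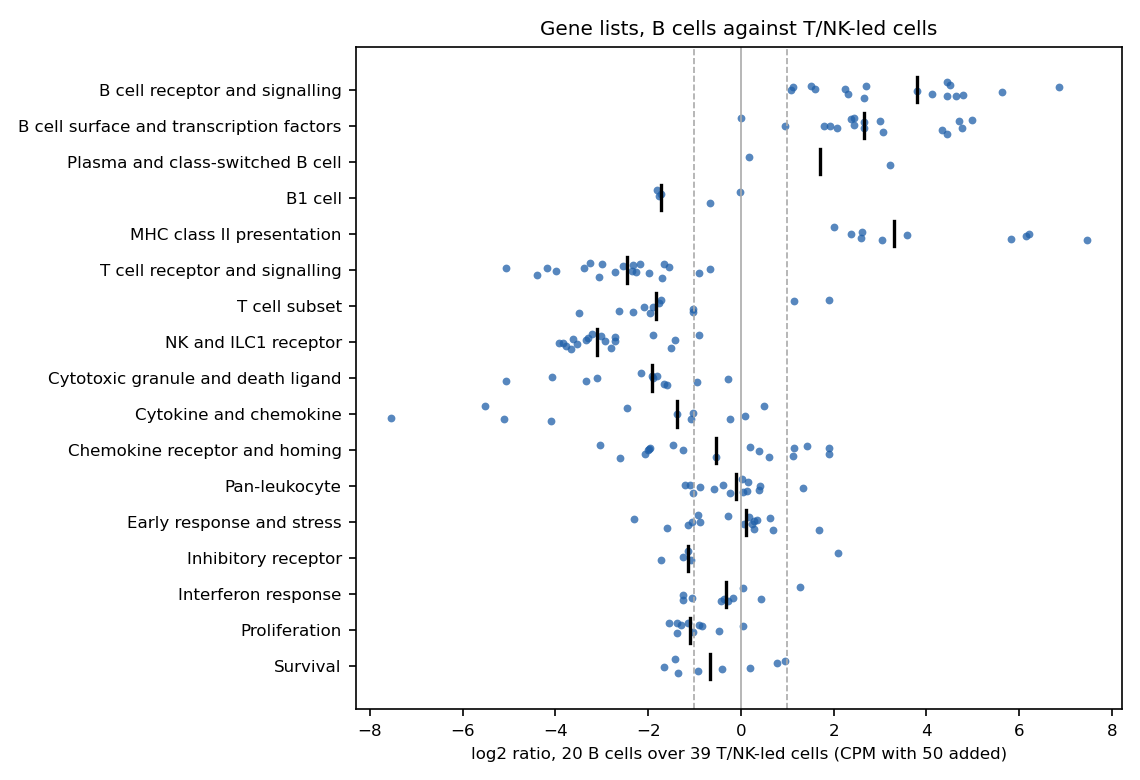
Log2 ratio of CPM with 50 added, 20 B cells over the 39 CD3 and CD3-poor cells, for each gene of the lists that passed the minimum (1 point a gene, black bars for the medians of the lists, dashed lines at 2-fold). Class II presentation (median 3.31) and both B cell lists lie to the right, and the T cell receptor (−2.45), NK and ILC1 (−3.11) and cytotoxic lists to the left.

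T cell and NK cell transcripts overlapped within single T/NK-led cells. With the T complex taken as 2 or more UMIs of Cd3d, Cd3e, Cd3g, Trac, Trbc1 and Trbc2, and NK receptors as 2 or more of Ncr1, Klrb1c, Klre1, Klrd1, Klrk1 and Tyrobp, 30 of 42 cells had both, 10 the T complex only, 2 NK receptors only and none neither. With the T complex narrowed to the CD3 chains, 19 had both and 13 NK receptors only. The difference lies in Trbc1 and Trbc2. All 11 CD3-poor cells carried 1 or both, but 1 of them had only 1 UMI and counted as NK receptors only both ways. The mixed cell with B cell transcripts, with 4 UMIs of Trbc1, 9 of Trbc2 and 0 of the CD3 chains, changed as well. Of the 28 CD3 cells 19 had 2 or more NK receptor UMIs, 10 had 10 or more and 6 had none, while each CD3-poor cell had 19 to 63.

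**Figure D4:**
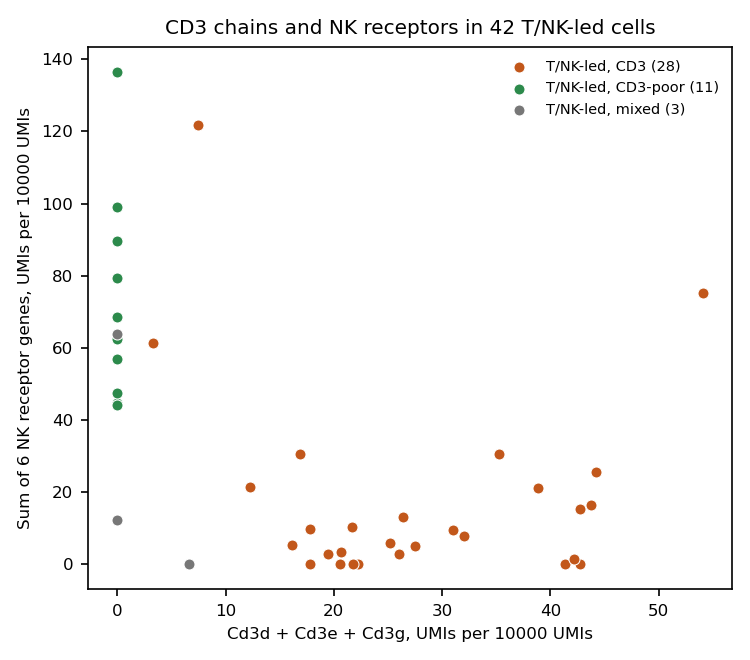
Summed level of 6 NK receptor genes against that of Cd3d, Cd3e and Cd3g in each of the 42 T/NK-led cells, both in UMIs per 10000 UMIs. The 11 CD3-poor cells lie at 0 on the CD3 axis and at 44.1 to 137 for the NK receptors, and the 28 CD3 cells spread from 0 to 122 (median 8.77).

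Within the T/NK-led class the 11 CD3-poor cells had the receptor set of NK cells and ILC1. Of 3695 genes with at least 10 UMIs over both subgroups, 188 (5.09%) were higher in CD3 than in CD3-poor cells and 164 (4.44%) lower (median −0.03). Of the NK and ILC1 list 14 of 18 genes that passed were lower in CD3 cells and none higher, and of the T cell receptor list 11 of 20 were higher and none lower. The CD3 genes drew the subgroups. Ncr1, the NK receptor NKp46, was present in all 11 CD3-poor cells at 1.72 to 18.1 per 10000 (median 8.17; 824 CPM) and in 4 of 28 CD3 cells (105 CPM, log2 ratio −2.50). Fcer1g was at 12.8 to 34.4 per 10000 in the CD3-poor cells (median 25.5; 2371 CPM) and in 6 of 28 CD3 cells (293 CPM, −2.82). The adaptor Tyrobp was in 10 of 11 against 3 of 28 cells (−2.33). The receptors Klrb1c (NK1.1; 875 against 121 CPM), Klrc1 (NKG2A; 1160 against 236), Klre1 (1144 against 225), Klrk1 (NKG2D; 1144 against 341) and Klrd1 (CD94; 1312 against 456) were all more than 2-fold higher in CD3-poor cells. Cd7 (1715 against 398 CPM), Id2 (2052 against 896) and Il2rb, a chain of the interleukin 2 and 15 receptors (1244 against 351), were likewise higher there, though the log2 ratio of Id2 was −0.95 without 1 CD3-poor cell. In the CD3 cells 1 cell of 5342 UMIs held 12 of the 20 Ncr1 UMIs, 35 of the 76 of Cd7 and 22 of the 56 of Tyrobp, and without it the CD3 levels were 43.1, 221 and 183 CPM. Car2, carbonic anhydrase, was in 8 of 11 CD3-poor cells (269 CPM) and at 0 in the CD3 cells, at least 17.1-fold lower.

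The markers that divide NK cells from ILC1 divided the 11 cells only in part. Eomes, a factor of NK cells, was in 2 of them at 1 UMI each (33.6 CPM). Itga1, an ILC1 surface integrin, was in 6 (235 CPM), and Il7r, the interleukin 7 receptor, in 6 (488 CPM). In the CD3 cells Eomes was higher, at 99.6 CPM, Il7r about the same, at 519 CPM, and Itga1 lower, at 105 CPM. Itga2, another integrin of the list, had 2 UMIs in 1 cell with Eomes. It had 1 UMI each in a cell with Itga1 and Il7r and in a cell with none of these genes. Gzma, a granzyme, was concentrated in 3 cells with 21, 50 and 22 UMIs and was at 0 in the other 8. None of the 3 had Il7r. Both cells with Eomes were among the 3 and had 0 UMIs of Itga1, while the remaining cell had 6 of Itga1. A cell of 6028 UMIs was placed with the CD3 cells by 2 UMIs of Cd3d, with 0 of Cd3e and Cd3g. It had 37 UMIs of the NK receptors, 5 of Eomes, 27 of Gzma, 1 of Il7r and 0 of Itga1. With 11 cells of 1 library this pattern rests on few cells and has no test.

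Constant regions of the T cell receptor were found in both subgroups. Trbc1 was at 1211 CPM in CD3-poor cells (all 11) and at 933 CPM in CD3 cells (15 of 28), a log2 ratio of −0.36. Trbc2 was at 538 CPM (6 of 11) and 1965 CPM (27 of 28), a ratio of 1.78, and Trac, the alpha chain, at 16.8 CPM (1 of 11) and 451 CPM (22 of 28), a ratio of 2.91. In the 20 B cells Trbc1 and Trbc2 were at 0, and 0.143 and 0.931% of the 1397 mesothelial-gated cells had a UMI of them, at a median depth of 15000 UMIs against 5583 for the CD3-poor cells. Of the 64 members 9 had 5 or more UMIs of each of Trbc1 and Trbc2, whose coding sequences are the near-identical pair shown above.

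The CD3 cells were of several kinds. Of the 28, 8 had 2 or more UMIs of Cd8a and Cd8b1, 3 had at least 1 UMI of Cd4 (2 with 2 or more) and 17 had none of these genes. The 8 cells with Cd8 had Ccl5 at 15 to 307 UMIs (median 144.0), Nkg7 at 7 to 41 (median 12.5) and, in 7 of 8 cells, the granzyme Gzmk at up to 7 UMIs. Gzmk was at 0 in the 17 cells with neither coreceptor and in the 3 with Cd4. The 17 had Il7r in 13 cells, the residency-linked chemokine receptor Cxcr6 in 13 and the costimulator Icos in 13, while the 8 with Cd8 had Il7r in 2, Cxcr6 in 4 and Icos in 4. Ccl5 was at 0 in all 3 cells with Cd4. Among these, 1 had 4 UMIs of Foxp3, the factor of regulatory T cells. The cell with a single Cd4 UMI had 64 UMIs of Nkg7, 70 of Xcl1 and 17 of the NK receptors. Trdc, the delta chain constant region, had 2 or more UMIs in 3 CD3 cells (12, 6 and 7 UMIs), all with Trac at 0, and 1 of them had 57 UMIs of Gzma.

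Genes of T cell signalling were shared in part with the CD3-poor cells. Lck, the kinase that starts receptor signalling, was at 466 CPM in CD3 and 370 CPM in CD3-poor cells and Zap70 at 189 and 185 CPM, whereas Lat, the adaptor that links the receptor to its pathways, was at 330 and 101 CPM (log2 ratio 1.33). Cd5 and Cd6, which dampen receptor signals, were at 157 and 142 CPM in CD3 cells and at 0 in CD3-poor cells, at least 3.12-fold and 2.80-fold higher. The inhibitory receptor Ctla4 was at 152 CPM, in 6 CD3 cells, and at 0 in CD3-poor cells. Ifi27l2a, an interferon-induced gene, was at 818 CPM in CD3 cells (15 of 28) and 33.6 CPM in CD3-poor cells, a ratio of 3.38. The dividing cell described further on, of 25214 UMIs, held 83 of its 156 UMIs, and without it the CD3 level was 441 CPM (2.55). That cell also held 16 of the 30 Cd5 UMIs, and the Cd5 level without it was 84.5 CPM. The survival gene Bcl2 had the opposite order, at 445 and 992 CPM (−1.07, or −0.76 without the CD3-poor cell with most), as did the phosphatase Dusp2, at 802 and 1934 CPM (−1.22).

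Chemokines and granule genes ran through both subgroups at different levels. Ccl5 was at 56.9 to 198 per 10000 in the CD3-poor cells (median 106) and at 0 to 576 in the CD3 cells (median 19.96), where 8 cells had none and the highest cells passed every CD3-poor cell. Its summed level was 12058 CPM (11191.5 to 12974) against 8400.1 CPM (7994 to 8822), less than a 2-fold difference. Xcl1 was at 0 to 102 per 10000 in CD3-poor cells (median 22.9; 10 of 11 cells) and at 0 to 118 in CD3 cells (median 0; 13 of 28), with a log2 ratio of −1.33. Single cells weighed on it, as the ratio was −2.03 without the CD3 cell with most Xcl1 (99 UMIs; CD3 level 729 CPM) and −0.91 without the CD3-poor cell with most. Ccl4 was in 10 of 11 CD3-poor cells (5651 CPM) and 12 of 28 CD3 cells (1190 CPM, −2.20), and 1 CD3-poor cell held 152 of the 336 Ccl4 UMIs of its subgroup (3261 CPM and −1.42 without it). Ccl3 was in 11 of 11 and 10 of 28 cells (−2.37). Nkg7 was at 1766 CPM (1444 to 2138) in CD3-poor and 1588 CPM (1414 to 1777) in CD3 cells. It is a gene of the rule, and cells without Cd3e and Cd3g could enter only through Nkg7 and Trbc2, so these levels are set in part by the choice of cells. The pore protein Prf1 was at 320 and 83.8 CPM (−1.46, or 177 CPM and −0.76 without the CD3-poor cell with most), and Ifng, interferon gamma, at 252 and 215 CPM. As a background, 2.72% of mesothelial-gated cells had a UMI of Ccl5, 0.358% of Xcl1 and 0.358% of Nkg7, and 11.7, 1.67 and 0% of the 60 myeloid-gated cells. Ccl4 was in 51.7% of the myeloid-gated cells.

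**Figure D5:**
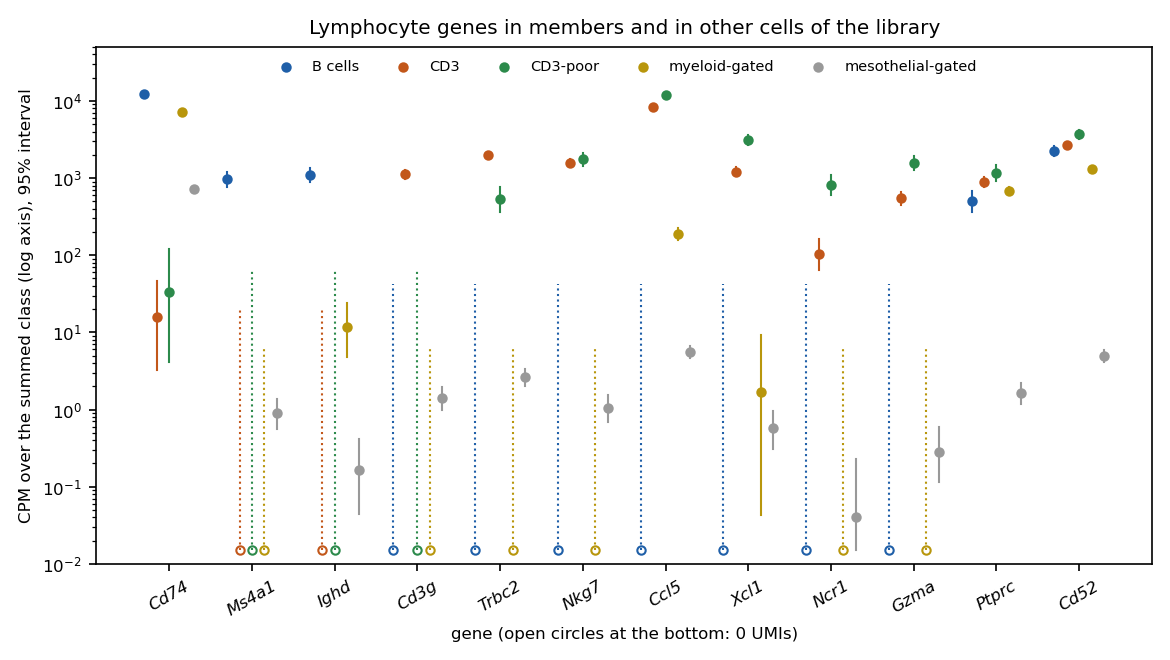
Summed level of 12 genes in B, CD3, CD3-poor, myeloid-gated and mesothelial-gated cells, in CPM on a log axis, with exact Poisson 95% intervals cut at the lower edge and open circles for 0 UMIs. Cd74 and Ms4a1 are highest in B cells, Ccl5 and Xcl1 in CD3-poor cells, and Cd52 is between 2238 and 3717 CPM in the 3 lymphocyte subgroups.

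Genes of cell state differed gene by gene between B cells and the 39 CD3 and CD3-poor cells. Of the early response and stress list 1 of 16 genes was higher in the B cells and 4 lower (median 0.12). The higher one was Rel, an NF-kappaB subunit, at 278 CPM in B cells, 47.2 in CD3 and 67.3 in CD3-poor cells (log2 ratio 1.69), and among the lower were Tnfaip3, which restrains NF-kappaB (23.2, 262 and 471 CPM, −2.31), and Dusp1 (197, 655 and 841 CPM, −1.60). Btg2, an antiproliferative gene, was at 348, 613 and 1497 CPM. Of the survival list 3 of 8 genes were lower in the B cells and none higher. Of the inhibitory receptor list 4 of 5 genes were lower in the B cells (median −1.14) and 1 was higher. That was Btla, in 10 of 20 B cells (162 CPM) and at 0 in the 39 others. Of the cytokine genes Il10, Il13, Il17a, Il21 and Lta were at 0 in the B, CD3 and CD3-poor cells, and Il4 gave UMIs in 3 CD3 cells and Cd40lg, the ligand that helps B cells, in 8. Receptor variable segments were seldom read. Of the CD3 cells 1 had 2 UMIs of Trav11, the alpha segment of the invariant NKT cell receptor, and 2 of the beta segment Trbv12-2. That cell had 11 UMIs of Trac and 0 of Cd4, Cd8a, Cd8b1 and the NK receptors. Other CD3 cells had 2 UMIs of Trbv17, Trgv2 or Trav7-4. At these counts no kind of T cell was assigned from the segments.

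Cell division was seen in 1 T cell. The proliferation list gave 236 UMIs in the CD3 cells (1237 CPM), with 7 of 10 genes that passed higher than in CD3-poor cells, but 186 of those UMIs lay in 1 cell of 25214 UMIs with 5 UMIs of Cd4. Without that cell the sum was 50 UMIs (302 CPM), and none of the 2 genes that passed was higher. Mki67 was at 0 in the B cells.

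The 3 mixed cells held transcripts of more than 1 cell type. The first (9252 UMIs) had 69 UMIs of Cd74, 40 of Igkc and 16 of Cd79a beside 97 of Ccl5 and 59 of the 6 NK receptors. The second (10505 UMIs) had 70 UMIs of the 4 sinusoidal genes beside 7 of Cd3d and 5 of Cd8a and Cd8b1. The third (27600 UMIs) had 159 of the sinusoidal genes, 376 of Dcn (the proteoglycan decorin) and 84 of Ecm1 beside 98 of Ccl5, 68 of Xcl1 and 34 of the NK receptors. Sinusoidal genes were lower in the B-led class for 7 of 8 that passed and stellate genes for 5 of 5, and none of either list passed once the mixed and plasma-like cells were left out. The whole sinusoidal list was at 7940 CPM in the mixed cells, 92.8 in B cells, 68.1 in CD3 cells and 0 in CD3-poor cells.

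Transcripts of the cells that make up most of the library were low in the other lymphocytes. Col1a2, the gene whose promoter drives the recombinase, gave a UMI in 2 of 20 B cells, 1 of 28 CD3 cells and 0 of 11 CD3-poor cells, against 990 of 1397 mesothelial-gated cells. Dcn was found in 15, 21 and 8 of them, and in all 1397 mesothelial-gated and 45 of 60 myeloid-gated cells. Thinned to 1000 UMIs in each cell, with no cell left out, the shares with Dcn were 40.0% of B cells, 32.1% of CD3 cells, 18.2% of CD3-poor cells, 28.3% of myeloid-gated and 99.6% of mesothelial-gated cells. At that depth Col1a2 was in 21.1% of mesothelial-gated cells, 3.33% of myeloid-gated cells and none of the B, CD3 and CD3-poor cells. The mesothelial list summed to 302, 225 and 286 CPM in B, CD3 and CD3-poor cells against 12399 CPM in mesothelial-gated cells, and the macrophage list to 92.8, 52.4 and 16.8 CPM against 28092 CPM in myeloid-gated cells. Their part in the other values was not tested.

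Ighm also gave UMIs outside the B cells. It was found in 10 of 28 CD3 cells (35.7%) and 7 of 11 CD3-poor cells (63.6%), at 1 to 3 UMIs a cell, but in 3.72% of mesothelial-gated cells and 9 of 60 myeloid-gated cells, which were deeper (median 15000 and 7546 UMIs). Thinned to 1000 UMIs the shares were 7.14% of CD3, 18.2% of CD3-poor, 0.644% of mesothelial-gated and 3 of 60 myeloid-gated cells, against 16 of 20 B cells. Igkc did not share this order, with 21.4% of CD3 cells, none of the CD3-poor cells and 13.0% of mesothelial-gated cells. The 6 CD3 cells with Igkc gave 6 UMIs in all. Thinned to 1000 UMIs, Igkc was in 1 CD3 cell (3.57%), no CD3-poor cell and 1.15% of mesothelial-gated cells. The Ighm level was 168 CPM in CD3-poor cells (80.6 to 309) and 2621 CPM in B cells (2290.4 to 2986).

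Against all other kept cells of the library, 357 of 3180 genes (11.2%) were higher in the members and 170 (5.35%) lower (median 0.11). A gene was compared when it had at least 20 UMIs in the members, so genes low in the members seldom entered. All 19 T cell receptor genes that passed, all 13 pan-leukocyte genes (median 2.50), 15 of 17 NK and ILC1 genes and 13 of 14 B cell receptor genes were higher. The T and B cell receptor lists hold Cd3e, Cd3g, Trbc2, Cd79a and Cd79b, which chose the members. These counts were thus set in part by the filter and by the choice of cells. After Igkc (9.86), Ighm (8.22) and Ccl5 (6.52), the largest log2 ratios were those of Cd52 (4.55), Xcl1 (4.47), Nkg7 (4.33), Trbc2 (4.20), Ccl4 (4.19), Dusp2 (3.90), Ms4a4b (3.84) and Coro1a (3.74), an actin-binding protein of leukocytes. Without the plasma-like and mixed cells the ratio was 4.65 for Igkc and 3.69 for Ighm, below the 6.85 of Ccl5 and, for Igkc, the 4.89 of Cd52. The list went on with Rac2 (3.67), Cd79a (3.62), Ltb (3.61), the lymphotoxin beta chain, and Trbc1 (3.55). Ltb was made in both classes, at 520 CPM in B-led and 635 CPM in T/NK-led cells. The early response and stress list divided, with 5 of 16 genes higher and 7 lower (median −0.69).

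The same rule found few lymphocytes in the negative fractions. In the negative recovery library 3 of 2818 kept cells met it (0.106%, exact binomial 95% interval 0.0220 to 0.311%), and in the negative injury library 0 of 5271 (0 to 0.0700%; 3 counts of the total are 0.0569%). The 3 cells were 1 B-led cell of 7214 UMIs with 50 of Cd74, 34 of Igkc, 6 of Ighm and 7 of Ighd, a T/NK-led cell of 4529 UMIs with 51 of Ccl5, 14 of Nkg7 and 12 of Xcl1, and a T/NK-led cell of 11198 UMIs with 6 of Nkg7 and 0 of Ccl5 and Ptprc. Ptprc, the leukocyte antigen CD45, was at 26.7 CPM over all kept cells of the positive recovery library, 0.441 CPM in the negative recovery and 0.0617 CPM in the negative injury library. Kept cells had a median of 12972, 8815 and 6995 UMIs in the same order. Libraries shared 3 to 9 cell barcodes between pairs, and none of them was a member's. With 1 library in each combination, the fraction, the stage, the animals and the handling of each library cannot be told apart, and the counts of the positive injury library were not analysed here.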

How the data were processed

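The authors deposited UMI counts of each gene in each cell barcode, and the file headers name software version 3.1.0. Builds mm10 and GRCh38 and featureCounts 1.6.2 are named in the submitters' processing notes. Neither aligner nor cell caller is given in the sources used here. Members, gene lists and comparisons were chosen with earlier results of these data known. The library totals were 33442403 (positive recovery), 49993127 (negative injury) and 27816768 UMIs (negative recovery).

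Each class was summed to 1 count per gene, given as CPM with exact Poisson 95% intervals, and shares with exact binomial intervals. Cells are not replicates and each group is 1 library, so nothing was tested. Ratios are log2 of CPM with 50 added, which understates the change of low genes. Genes compared had at least 10 UMIs over both classes or, for members against other cells, at least 20 UMIs in the members. A 0 was given the floor of 3 counts over the class. The text names the 15 genes with the highest and lowest ratios detected in at least 5 cells, and genes of 28 lists (348 genes). For members against other cells only the 15 highest are named, from genes detected in at least 10 cells. Genes of the CD3 and CD3-poor comparison, the subgroups and the plasma-like and mixed cells were chosen after their values were seen. Myeloid-gated cells had at least 20 per 10000 of the myeloid genes and mesothelial-gated cells at least 10 of the mesothelial genes. Doublets were scored with Scrublet in scanpy 1.11.5 and kept, with removal as an alternative. TMM scaling used edgeR 4.0.16. The ratio calculation was tested on simulated data. Python 3.11.15, numpy 2.4.6, scipy 1.17.1 and pandas 2.3.3 were used. Some genes are not reported here.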

Additional observations from a re-analysis of the deposited data

How the results depend on the processing

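For the 45 ratios of genes named for the B-led against T/NK-led and the members against other cells comparisons, none reversed under 14 settings. Of the values, 423 moved by less than their counting interval and 207 by more. These genes were named for the most extreme ratios in the same data, and some chose the members, so a reversal was unlikely. The setting without a filter on low counts cannot change a ratio, and its values are among the 423. The number of members was 59 to 64. With 10 CPM added in place of 50, 220 genes were higher and 1935 lower in the B-led class (109 and 653 as reported), and 583 higher in the members than in other cells (357 as reported). TMM scaling moved the median of all genes from −0.40 to −0.14 and gave 191 higher and 334 lower. With a lymphocyte sum of at least 10 per 10000, 187 were higher and 429 lower, 109 were lower in the members than in other cells (170 as reported), and NK receptors alone were in 1 cell (2 as reported). The mean of the cells' own CPM gave 189 higher genes, and removal of called doublets 171. Without a filter on low counts, 734 genes were lower in the members.

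The following, and the levels without the cell with the most UMIs of a gene, were chosen after the data were seen. Without the plasma-like cells 188 genes were higher in the B-led class, and without these and the mixed cells 208, with 104 genes lower in the members than in other cells. NK receptors alone were in 1 cell without the mixed cells, and in 1 without both kinds. With the CD3 chains alone as the T complex, 19 cells had both and 13 NK receptors only (30 and 2 as reported).

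No paired analysis was possible because each group is 1 library. The 20 B, 28 CD3 and 11 CD3-poor cells hold 86228, 190831 and 59462 UMIs, so genes at a few CPM were not detectable, and absent counts are limits, not absence.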
